A study of Homo sapiens with 4 samples.

Results

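The genes described here are 6 keratin genes of simple, single-layered epithelium and its relatives, namely KRT7, KRT8, KRT18, KRT19, KRT23 and KRT80, out of 62077 rows of the expression table. The members were chosen by name from the keratin family with their levels in these 4 libraries already known, so every level and change of the 6 genes below is a description and carries no test. RNA sequencing was performed on FaDu, an established human line derived from a hypopharyngeal squamous cell carcinoma, and asked how the response to low oxygen changed when TET1 was depleted. TET1 oxidises methylated cytosine in DNA. Each of the 4 groups had 1 library. N-scr and H-scr carried a scrambled control in normoxia and in hypoxia, and N-si and H-si carried the TET1 knockdown (TET1-si) in the same 2 oxygen states. Hypoxia meant 19 h in an incubator at 1% O2, 5% CO2 and 94% N2. By the study's methods the knockdown came from a lentiviral short hairpin in a puromycin vector with a single TET1 sequence listed. The libraries therefore describe 1 hairpin in 1 cell line, and the control cells carried the same vector with a scrambled hairpin. Values given as a row of 4 stand in the order N-scr, then N-si, then H-scr, then H-si.

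Keratins are the intermediate filament proteins of epithelial cells. A filament is built from pairs of an acidic type I keratin and a basic type II keratin, so neither type makes filaments on its own. KRT8 (type II) and KRT18 (type I) form the main pair of simple epithelia and are also made by many carcinomas. KRT7 (type II) and KRT19 (type I) accompany them in ducts and glands, KRT19 being the smallest keratin, which lacks a tail domain. KRT80 (type II) and KRT23 (type I) are less studied epithelial keratins. Stratified epithelia, such as the normal lining of the pharynx, rely instead on KRT5 with KRT14 in the basal layer and on further pairs above it.

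The hairpin target is shown because every TET1-si comparison rests on it. It matched the canonical TET1 transcript once, in exon 12 of 12 within the 3′ untranslated region, at chr10:70451833-70451853 on the plus strand of hg19. Capitals mark the stretch that pairs with the seed of the guide strand, bases 2 to 8.

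TET1 hairpin target: ccttgatagaatcACTCAGTt

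None of the other canonical protein-coding transcripts held the whole 21-base target, with 19894 transcripts searched in all. The 7-base seed match ACTCAGT stood in 19.3% of those transcripts and in 0 of the 6 keratin transcripts. The longest run shared between the target and a member's transcript was 5 to 7 bases.

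Of the 6 members, the RefSeq promoter table held KRT8. Its window of 300 bases (250 before and 50 after a RefSeq start) is shown because KRT8 had the highest mean level of the 6 and one of the strongest reductions after TET1-si. The RefSeq table is on GRCh38, so the sequence was placed in hg19 by an exact match to the genome, at chr12:53320204-53320503 on the minus strand. CpG dinucleotides, the context in which TET1 acts, are in capitals.

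KRT8 promoter window: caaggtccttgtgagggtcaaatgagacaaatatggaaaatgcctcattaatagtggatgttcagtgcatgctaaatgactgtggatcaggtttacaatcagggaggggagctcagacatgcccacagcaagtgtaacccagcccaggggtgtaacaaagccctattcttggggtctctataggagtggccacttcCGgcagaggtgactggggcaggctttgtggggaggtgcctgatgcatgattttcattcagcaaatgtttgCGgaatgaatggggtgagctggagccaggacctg

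The window held 2 CpG dinucleotides, against a median of 14 over 35116 promoter windows, and 18.2% of windows held as few. It held none of the letters ACGTG or GCGTG (the core bound by hypoxia-inducible factors, found on either strand of 48.4% of windows), TGAGTCA (AP-1, 4.95%), GGGCGG (SP1, 45.0%) or TATAAA (11.5%). KRT8 has 18 annotated transcript starts, and this window surrounds a start 21393 bp upstream of that of the canonical transcript. Gene-level values do not show which start was used.

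Depth behind the values was recovered at 22900000 reads for N-scr, 24500000 for N-si and for H-scr, and 22500000 for H-si. TET1 itself was listed at 0.129, 0.0493, 0.331 and 0.122 FPKM, on approximately 28, 11, 76 and 26 reads, which is 2.63-fold lower in the TET1-si library under normoxia and 2.71-fold lower under hypoxia. FPKM are fragment counts scaled to exon length and to the number mapped, so levels can be set side by side between genes. All 10 squamous markers had a mean of at least 1 FPKM. Of markers of other cell types, 6 of 9 for fibroblasts, 4 of 8 for leukocytes and 3 of 5 for endothelium stayed under 0.1 FPKM in all 4 libraries, with COL1A2, LUM, PDGFRA, CD3E, TYROBP and CLDN5 at 0. The summed levels were 7.18, 14.9, 31.0 and 38.5 for the fibroblast list, 23.1, 32.9, 22.2 and 32.8 for the leukocyte list and 8.93, 22.2, 17.8 and 48.4 for the endothelial list, carried mainly by COL1A1, CD68 and CDH5. These sums were higher in the TET1-si libraries of each oxygen state, and their part in the results was not tested.

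The keratin pair KRT8 and KRT18 was lower after TET1-si in both oxygen states, by 3.61-fold to 4.27-fold, while hypoxia moved it little. KRT7 was lower by 1.56-fold under normoxia and 2.10-fold under hypoxia. KRT19 behaved differently, with hypoxic levels just under 2-fold above normoxic ones in the scrambled control and 3.98-fold above them with TET1-si, so that it was the highest simple keratin in H-si. KRT80 was the member that was higher after TET1-si in both oxygen states, by 1.30-fold and 1.57-fold. KRT23 was barely detected. With 1 library per group no replicate error existed for any of these values, and the intervals given below cover counting error only.

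**Figure D1:**
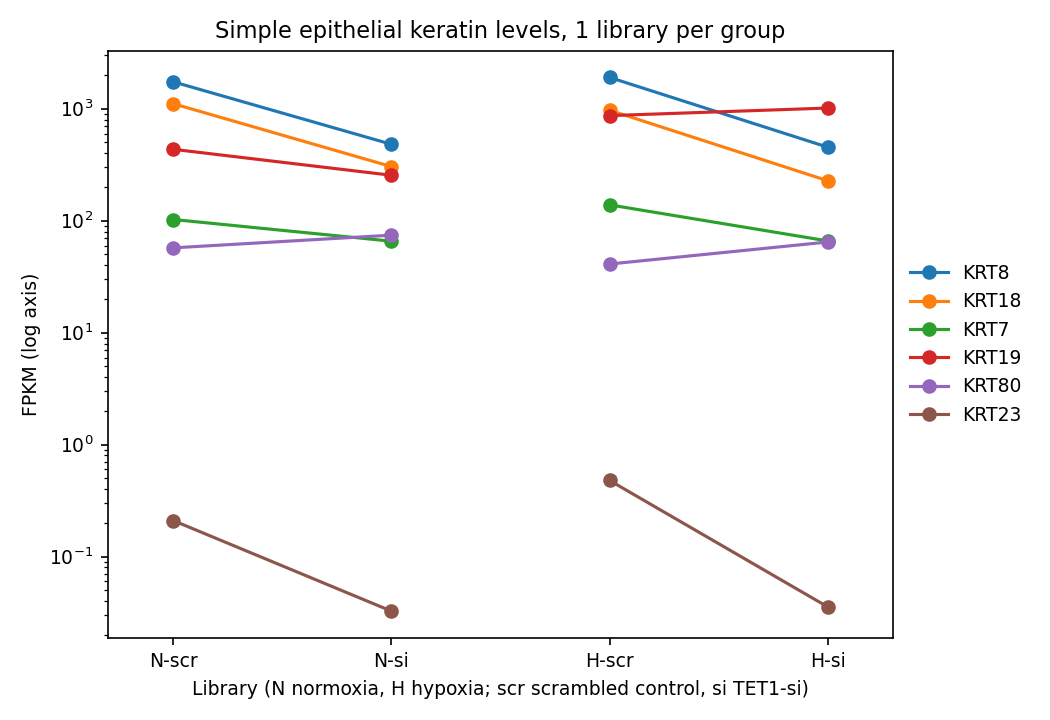
FPKM of the 6 simple epithelial keratins on a log axis in the 4 libraries, 1 point per library, with a line joining the scrambled and TET1-si libraries of the same oxygen state. KRT8 and KRT18 run downward in parallel from scrambled to TET1-si in both oxygen states, KRT80 runs upward, and KRT19 runs downward in normoxia (434.1 to 254.6) and slightly upward in hypoxia (868.0 to 1014.3).

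Among members counted as at least 2-fold changed (a change of at least 1 on the log2(FPKM + 0.1) scale), 4 of 6 were lower after TET1-si under hypoxia (KRT8, KRT18, KRT7 and KRT23), where 8.35% of all 15057 rows with a mean of at least 1 FPKM were as low. Under normoxia 3 of 6 were lower (KRT8, KRT18 and KRT23), against 5.56% of all rows. The same 3 were lower in both oxygen states, as were 3.06% of all rows. No member was 2-fold higher after TET1-si, against 12% of rows under hypoxia and 12.1% under normoxia. These shares are backgrounds only, since the members were chosen with these values known. KRT23 did not reach the minimum mean of 1 FPKM, and the other 5 members did. With a pseudocount of 1 its changes became -0.51 under hypoxia and -0.23 under normoxia, so it was no longer counted, which left 3 members lower under hypoxia and 2 under normoxia.

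Between oxygen states 1 member of 6, KRT19, was past 2-fold upward with TET1-si, where 12.5% of rows were, and 0 of 6 with the scrambled control, where 12.9% were. No member was 2-fold lower, against 8.66% of rows in TET1-si cells and 4.53% in scrambled cells. KRT19 in scrambled cells lay just under the limit, at 0.9995 on the log2 scale, and KRT7 after TET1-si under hypoxia lay just past it, at -1.07. After TET1-si the median change of the 6 members was -1.57 under hypoxia, beside 0.10 for all rows, and -0.997 under normoxia, beside 0.15. Between oxygen states it was 0.28 with the scrambled control, beside 0.05 for all rows, and -0.04 with TET1-si, beside 0.03. These member medians include KRT23, whereas the medians of all rows leave out genes under the minimum mean of 1 FPKM. Over the 5 members at that minimum the median after TET1-si was -1.07 under hypoxia and -0.77 under normoxia. Between oxygen states the median of the 5 was 0.13 with the scrambled control and -0.09 with TET1-si.

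KRT8 (ENSG00000170421, chromosome 12, 53290971 to 53343738, minus strand, hg19) went from 1739.1 FPKM (N-scr) to 481.3 (N-si) under normoxia and from 1903.3 (H-scr) to 453.2 (H-si) under hypoxia. Both scrambled libraries were above both TET1-si libraries. The libraries of a knockdown state came from different oxygen states and are not replicates. Relative to scrambled cells it was 3.61-fold lower under normoxia and 4.20-fold lower under hypoxia. The log2 ratios were -1.85 (95% counting interval -1.88 to -1.83) and -2.07 (-2.09 to -2.05), resting on approximately 16010 to 73210 reads per library. Of the 15057 rows, 295 had a lower value under normoxia and 342 under hypoxia. The response to hypoxia was small by comparison, 0.13 with the scrambled control and -0.09 with TET1-si, and the latter became 0.07 with upper-quartile scaling and 0.05 as TPM.

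KRT18 (ENSG00000111057, chromosome 12, 53342655 to 53346685, plus strand) encodes the type I partner of KRT8 and lies beside it. Its FPKM was 1108.9 in N-scr against 304.2 in N-si, with 970.0 in H-scr against 227.3 in H-si, which follows the order of KRT8 between knockdown states but not between oxygen states in scrambled cells. It was 3.65-fold lower after TET1-si under normoxia and 4.27-fold lower under hypoxia. The log2 ratios were -1.87 (-1.90 to -1.83) and -2.09 (-2.13 to -2.05). Between oxygen states KRT18 changed by -0.19 with the scrambled control and by -0.42 with TET1-si, so both hypoxic libraries were lower. This direction held under each scaling, but the size depended on it. With the scrambled control the change was -0.06 with upper-quartile scaling and -0.08 as TPM. With TET1-si it was -0.26 and -0.28.

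The ratio of KRT18 to KRT8 FPKM was 0.638 in N-scr (95% counting interval 0.629 to 0.646) and 0.632 in N-si (0.616 to 0.648). The hypoxic libraries gave 0.510 for H-scr (0.503 to 0.517) against 0.501 for H-si (0.487 to 0.516). The pair therefore kept its ratio within counting error between scrambled and TET1-si cells, with log2 differences of -0.01 under normoxia and -0.02 under hypoxia and interval half-widths of 0.04 and 0.05. Between oxygen states the log2 difference of the ratio, hypoxia less normoxia, was -0.32 with the scrambled control and -0.33 with TET1-si, where the half-widths were 0.03 and 0.06. A ratio of genes within a library does not depend on how libraries are scaled. The summed FPKM of the pair was 2848.0 and 2873.3 for the scrambled controls in normoxia and hypoxia, against 785.5 and 680.5 for TET1-si.

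**Figure D2:**
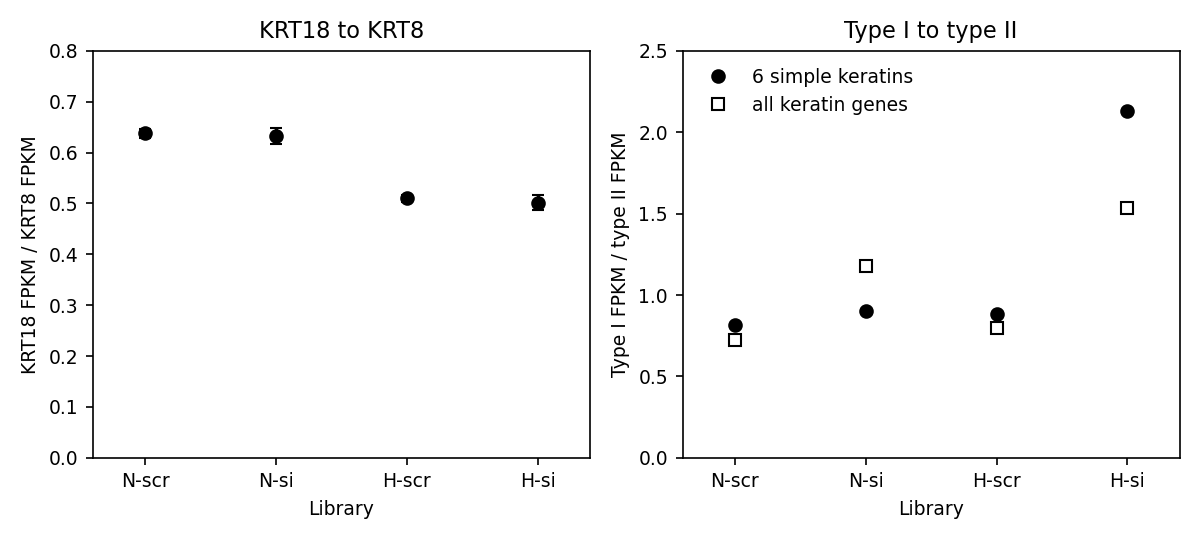
Left, the ratio of KRT18 to KRT8 FPKM in each library with 95% counting intervals. Right, summed FPKM of type I over type II keratins in each library for the 6 simple keratins (filled circles) and all keratin genes (open squares), drawn without error bars. The left ratio steps from about 0.64 in normoxia to about 0.51 in hypoxia and barely differs between knockdown states, while the right ratio is highest in H-si in both sets.

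The annotation places the 2 genes head to head with an overlap of 1084 bp on opposite strands. KRT8 transcripts from distant starts share 375 bp with the exons of the canonical KRT18 transcript, while the exons of the canonical KRT8 transcript share none with KRT18. The counting is not stated to use strand, so reads from the shared stretch could be given to either gene. Processed copies of both genes are another place where reads can be lost or shared. Of 43 annotated KRT8 copies in the table, 29 were at 0 in all libraries, and their summed FPKM was 0.350% to 1.81% of that of KRT8. The highest copy was KRT8P12, listed at 5.74, 7.06, 5.37 and 7.11 FPKM, and it overlaps an exon of KPNA4 by 125 bp. For KRT18 there were 38 copies, which summed to 0.0960% to 1.01% of the parent. All 3 KRT19 copies were at 0.

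KRT7 (ENSG00000135480, chromosome 12, 52626304 to 52645970, plus strand), a type II keratin of ductal epithelium, had 102.5 FPKM (N-scr) against 65.6 (N-si) under normoxia and 138.5 (H-scr) against 65.9 (H-si) under hypoxia. The TET1-si libraries were nearly level and the scrambled libraries were both higher, H-scr most. Its TET1-si log2 ratio was -0.64 (-0.72 to -0.57) under normoxia and -1.07 (-1.15 to -0.996) under hypoxia. Its response to hypoxia was 0.43 with the scrambled control and 0.01 with TET1-si, and the counting interval of the latter, -0.08 to 0.09, included 0. The value with TET1-si depended on the scaling, at 0.17 with upper-quartile scaling and 0.14 as TPM. The antisense gene KRT7-AS, which shares 221 bp with exons of the canonical KRT7 transcript, was listed at 11.6, 6.85, 16.5 and 8.04 FPKM. Without strand, reads from the shared stretch cannot be assigned to KRT7 or to this antisense gene.

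KRT19 (ENSG00000171345, chromosome 17, 39679869 to 39684560, minus strand), a type I keratin, had 434.1 FPKM (N-scr) and 254.6 (N-si) in the normoxic libraries, with 868.0 (H-scr) and 1014.3 (H-si) in the hypoxic ones. Both hypoxic libraries were above both normoxic libraries. On the log2 scale its hypoxia response was 0.9995 with the scrambled control (counting interval 0.97 to 1.03) and 1.99 with TET1-si (1.96 to 2.03), where 428 of 15057 rows were higher. After TET1-si it was 1.71-fold lower under normoxia, a log2 ratio of -0.77 (-0.81 to -0.73), and 1.17-fold higher under hypoxia, a log2 ratio of 0.22 (0.20 to 0.25). Less the median change of all rows these changes were -0.92 and 0.12. The change under hypoxia stood at the 57.6 percentile of all rows, near the middle. A response of -0.5 or lower under normoxia together with a response above 0 under hypoxia was found for 318 rows, 2.11% of all.

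KRT80 (ENSG00000167767, chromosome 12, 52562780 to 52585784, minus strand), a type II keratin, had 57.2 FPKM (N-scr) against 74.3 (N-si) under normoxia and 41.0 (H-scr) against 64.5 (H-si) under hypoxia. Each TET1-si library was above both scrambled libraries. The TET1-si log2 ratio was 0.38 (0.32 to 0.43) under normoxia and 0.65 (0.59 to 0.71) under hypoxia, which is 0.23 and 0.55 above the median change of all rows. Its response to hypoxia was -0.48 with the scrambled control and -0.20 with TET1-si, and the latter became -0.04 with upper-quartile scaling and -0.07 as TPM. As a percentage of the KRT8 FPKM, KRT80 stood at 3.29, 15.4, 2.16 and 14.2.

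KRT23 (ENSG00000108244, chromosome 17, 39078948 to 39093886, minus strand), a type I keratin, was listed at 0.210 FPKM (N-scr) against 0.0326 (N-si) and at 0.479 (H-scr) against 0.0355 (H-si). These values rested on approximately 10, 2, 23 and 2 reads. The scrambled libraries were above the TET1-si libraries, with log2 ratios of -2.69 (-6.48 to -0.27) under normoxia and -3.75 (-7.44 to -1.55) under hypoxia. Its hypoxia response with TET1-si was not detectable at this depth (-4.31 to 4.56). A lncRNA on the opposite strand, ENSG00000234477, overlaps 186 bp of its exons and was listed at no more than 0.0677 FPKM.

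**Figure D3:**
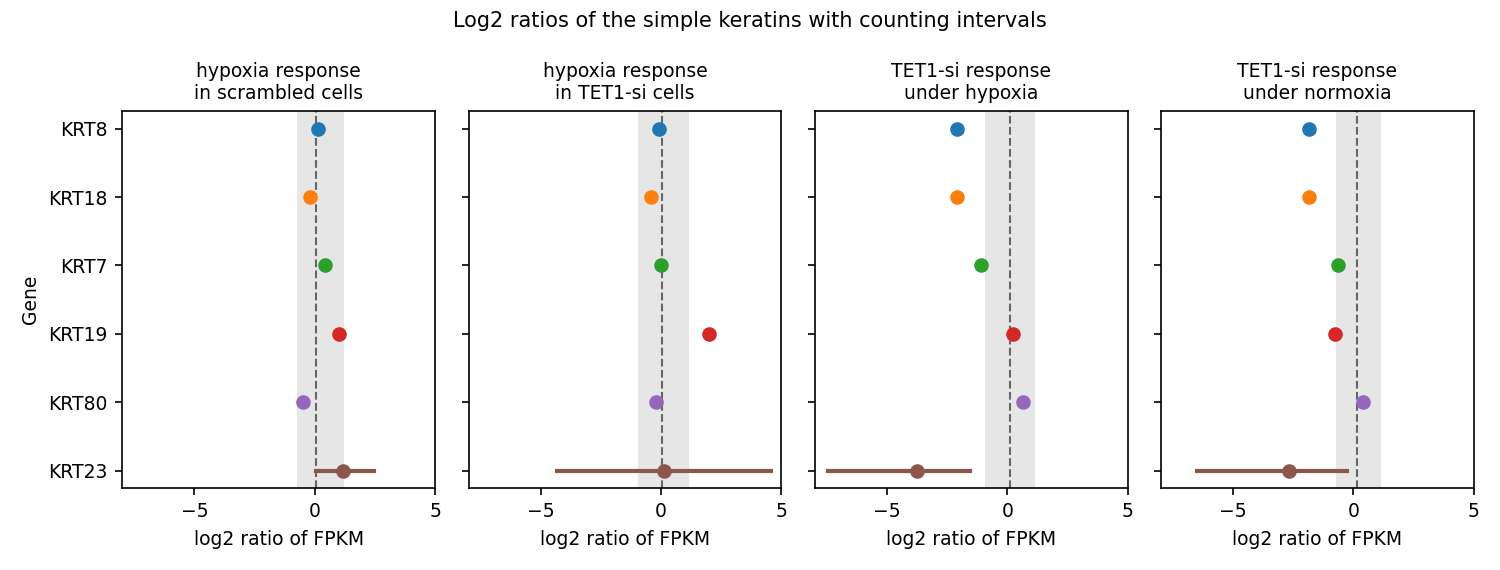
Log2 ratios of FPKM for the 6 genes in the 4 comparisons, with bars for the 95% counting interval (hidden behind the point for all genes but KRT23). The dashed line is the median and the grey band the 10th to 90th percentile of the change of all 15057 rows on the log2(FPKM + 0.1) scale. KRT8, KRT18 and KRT23 lie left of the band in both TET1-si comparisons, KRT7 under hypoxia only and KRT19 under normoxia only. KRT19 lies right of it in the comparison of H-si with N-si, and KRT23 sits at its right edge in that of H-scr with N-scr.

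The difference of the 2 hypoxia responses, taken as TET1-si minus scrambled control, was positive for KRT19 at 0.99 (counting interval 0.95 to 1.04) and for KRT80 at 0.28 (0.20 to 0.36). It was negative for KRT7 at -0.43 (-0.53 to -0.32), KRT18 at -0.23 (-0.28 to -0.18) and KRT8 at -0.22 (-0.25 to -0.18). For KRT23 it was not detectable at this depth, with an interval from -4.41 to 2.28. Among all rows KRT19 stood at the 95.1 percentile of this difference, and KRT8 and KRT18 at the 36.8 and 36.0 percentiles. A larger hypoxia response with TET1-si was not particular to KRT19 among keratins. The median hypoxia response of the 9 stratified keratins with a mean of at least 1 FPKM was 0.69 with the scrambled control and 1.45 with TET1-si.

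The make-up of the simple keratins differed accordingly. KRT8 and KRT18 together were 82.7% and 73.3% of the summed FPKM of the 6 genes in the normoxic and hypoxic scrambled controls, but 66.6% and 37.3% with TET1-si. KRT19 made up 12.6%, 21.6%, 22.1% and 55.6% of the sum. The ratio of KRT19 to KRT18, both type I, was 0.391, 0.837, 0.895 and 4.46. The sum of type I over type II members was 0.813, 0.90, 0.883 and 2.13, so type I members exceeded type II members only in H-si. Over all 56 keratin rows of the table (30 type I and 26 type II) this ratio was 0.721, 1.18, 0.795 and 1.53.

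**Figure D4:**
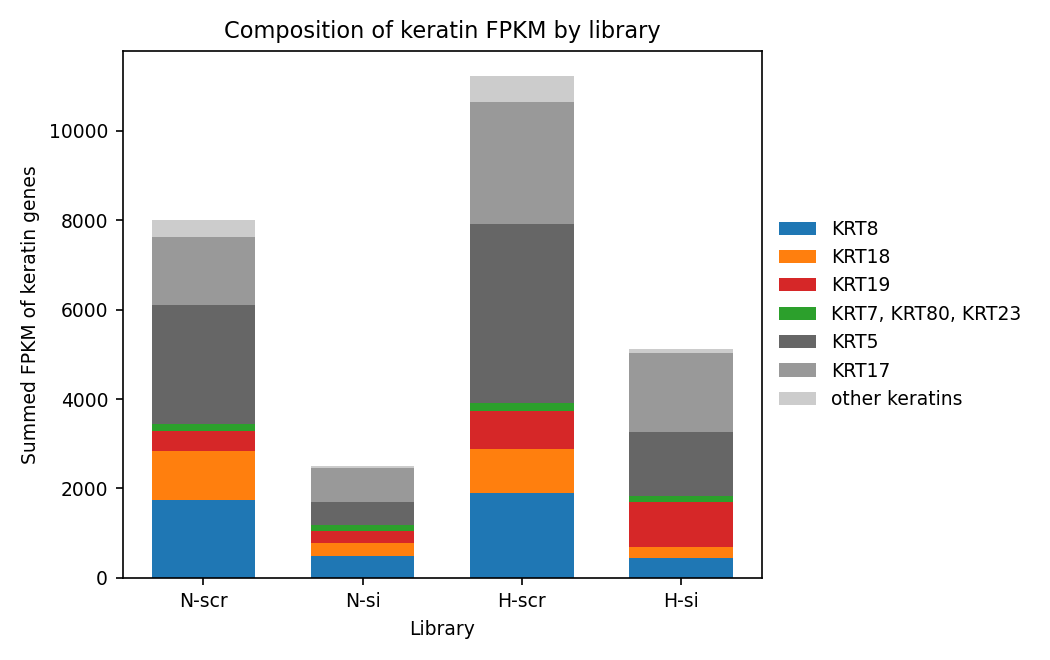
Summed FPKM of all keratin genes in each library, stacked by gene, from KRT8, KRT18, KRT19 and the other simple keratins at the bottom (colours) to KRT5, KRT17 and the remaining keratins at the top (greys). The bars reach 8017.5 (N-scr) and 2499.4 (N-si) in normoxia and 11232.2 (H-scr) and 5118.9 (H-si) in hypoxia, and the KRT19 block is larger than the KRT8 block only in H-si.

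FaDu cells made simple and stratified keratins side by side. Ranked by mean FPKM, KRT5 and KRT17 came first and KRT8, KRT18 and KRT19 took ranks 3 to 5 of the 56 rows, with KRT7 and KRT80 at ranks 7 and 8. The simple keratin KRT20 was at 0.0534 FPKM or less. The 6 members made up 42.9% and 47.2% of all keratin FPKM in normoxia, without and with TET1-si, and 34.9% and 35.7% in hypoxia, so their share differed more between oxygen states than between knockdown states. All keratins together were 0.974%, 0.314%, 1.48% and 0.707% of the column total. Fewer cells that make a keratin and less of its RNA per cell cannot be told apart in such libraries.

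Of a list of 22 stratified keratins, 9 had a mean of at least 1 FPKM. Of these, 6 (KRT4, KRT5, KRT6A, KRT13, KRT14 and KRT15) were at least 2-fold lower after TET1-si in each oxygen state and 0 higher. Of all rows, 8.35% were as low under hypoxia, 5.56% under normoxia and 3.06% in both. The shares of all rows that were 2-fold higher were 12% under hypoxia and 12.1% under normoxia. The median change of the 9 was -1.68 under hypoxia and -3.73 under normoxia. KRT6A (H-scr 109.2 FPKM, H-si 0.357) and KRT14 (99.9 and 1.41), keratins of activated and of basal squamous cells, had changes of -7.90 and -6.05 under hypoxia, beside -2.07 for KRT8 and -2.09 for KRT18. Hypoxic levels were past 2-fold upward for 7 of the 9 with TET1-si, against 12.5% of all rows. With the scrambled control they were for 3, against 12.9% of all rows. KRT5, the most abundant keratin, had 2672.6, 523.8, 3992.5 and 1430.3 FPKM. Of the 10 squamous markers, 0 were 2-fold higher after TET1-si in either oxygen state. In each state 4 were at least 2-fold lower, against 8.35% of all rows under hypoxia and 5.56% under normoxia. The 4 were the keratins KRT5, KRT6A and KRT14 in both states, with SFN under hypoxia and the desmosomal cadherin DSG3 under normoxia. TP63, the regulator of squamous identity, had 50.7, 42.1, 54.8 and 53.4 FPKM. The part of these markers in the changes of the simple keratins was not tested.

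Proteins that bind or modify keratin filaments were followed as a list of 28 genes, all above the minimum level. After TET1-si 3 were past 2-fold upward and 3 downward under hypoxia, where 12% of all rows were higher and 8.35% lower. Under normoxia 2 were past it upward and 0 downward, where 12.1% of all rows were higher and 5.56% lower. The median changes were 0.12 under hypoxia and 0.35 under normoxia. PKP2, a plakophilin that joins keratins to desmosomes, was higher in both oxygen states, at 26.5, 74.4, 28.9 and 90.9 FPKM. PRKCE, a kinase that phosphorylates KRT18, was also higher in both, at 0.663, 3.59, 1.92 and 4.28 FPKM. PPL, the plakin periplakin, was higher under hypoxia (H-scr 110.3 FPKM, H-si 244.1).

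The partners that were 2-fold lower under hypoxia were SFN, YWHAG and TGM2. SFN, a 14-3-3 protein that binds keratins, had 317.6 FPKM in H-scr and 143.7 in H-si. TGM2, a cross-linking enzyme that can act on KRT8, had 4.51 and 1.38. The plakin cross-linkers PLEC (60.1 FPKM in H-scr against 114.9 in H-si) and DSP (72.8 against 86.3) were not past 2-fold. Between oxygen states 5 partners were 2-fold higher and 0 lower with the scrambled control, against 12.9% and 4.53% of all rows. With TET1-si 3 were higher and 1 lower, against 12.5% and 8.66% of all rows. The lower one was HSPA8, a chaperone, which went from 2382.8 FPKM in N-si to 1054.0 in H-si.

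**Figure D5:**
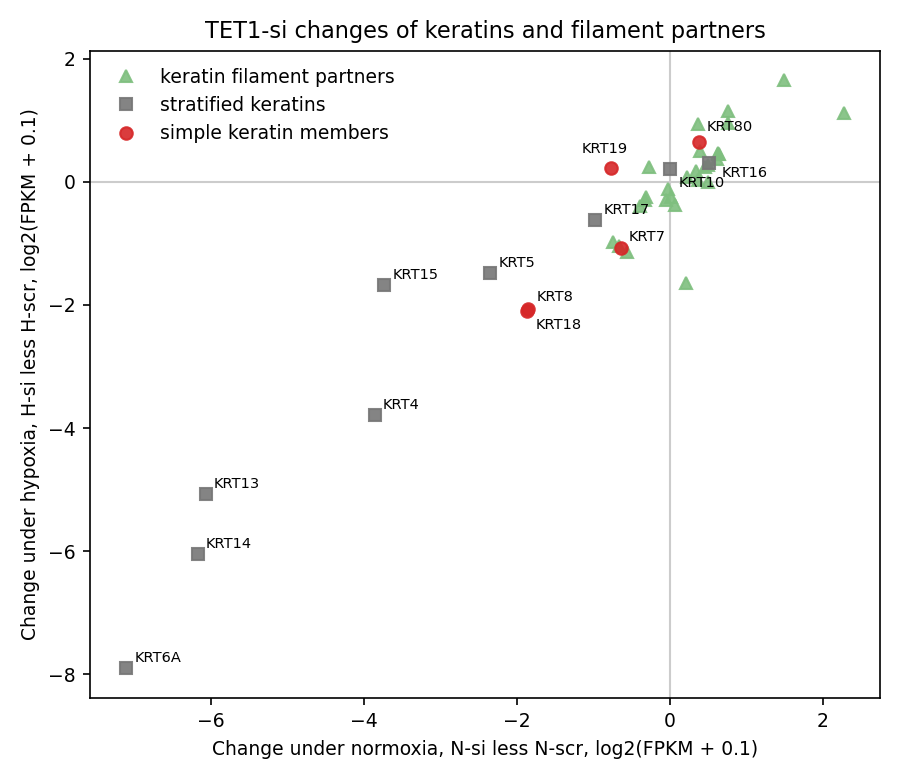
Change after TET1-si on the log2(FPKM + 0.1) scale under normoxia (horizontal) and under hypoxia (vertical) for the simple keratins (circles), stratified keratins (squares) and filament partners (triangles) with a mean of at least 1 FPKM. KRT8 and KRT18 nearly coincide at about -1.9 and -2.1, several stratified keratins lie far lower, and 2 of the 28 partners lie beyond 1 on both axes.

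Other intermediate filament genes were mostly near or below the minimum. Of a list of 16, 4 reached a mean of 1 FPKM, namely the lamins LMNA, LMNB1 and LMNB2 of the nucleus and SYNM. VIM, the mesenchymal filament, was at 0.406 FPKM or less in the 4 libraries. LMNB1 had 299.8, 322.9, 160.9 and 73.7 FPKM. It was the 1 gene of these 4 at least 2-fold lower after TET1-si under hypoxia, where 8.35% of all rows were.

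The pattern of each member over the 4 libraries was compared with that of 9465 protein-coding genes with a mean of at least 5 FPKM, by the distance between centred log2 values. Nearest to KRT8 were MFNG, PLAGL1 and LGALS1, at distances of 0.12 to 0.22. KRT8 lay at 0.33 from KRT18, and the genes closer to KRT18 than that were NFIA, NGRN and SLC35G2. Nearest to KRT18 was NFIA (0.09), to KRT7 RFX7 (0.04), to KRT19 HIST1H2BD (0.14), to KRT80 MRPS14 (0.05) and to KRT23 IL1A (0.19). Among the members, KRT19 lay at 1.57 from KRT7, 1.96 from KRT23, 2.03 from KRT80, 2.32 from KRT8 and 2.56 from KRT18, and KRT80 lay at 2.51 from both KRT8 and KRT18. With 4 points per gene these distances are descriptions of the libraries only. Those of KRT23 also depend on the pseudocount of 0.1, since the gene rested on approximately 10, 2, 23 and 2 reads. The pseudocount took its TET1-si log2 ratio under hypoxia from -3.75 to -2.09.

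Expressed neighbours within the 2 keratin clusters were few. On chromosome 12 the table listed KRT7-AS and AC107016.1, a short feature at the 3′ end of KRT18, which had 110.6, 40.8, 114.2 and 32.6 FPKM. On chromosome 17, SMARCE1, TMEM99 and JUP were higher after TET1-si in both oxygen states, by 0.27 to 0.85 on the log2 scale. AC019349.5, which overlaps KRT13, was 17.9 FPKM in N-scr and 0.155 in N-si.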

How the data were processed

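RNA-Seq had been performed on 4 FaDu libraries, 1 per group. The authors prepared TruSeq mRNA libraries, sequenced 100 bp reads on an Illumina sequencer (single end by the labels, paired end by the methods) and ran TopHat and Cufflinks with Ensembl annotations on hg19, and the deposited values are gene-level FPKM. Versions were not given in the sources used here. Rows with a locus on a chromosome were matched to the members by symbol. The members and gene lists were chosen with earlier results of these data known. Changes were computed as log2(FPKM + 0.1) and compared with all rows with a mean of at least 1 FPKM, leaving out 232 rows whose gene ID is repeated. A pseudocount understates the change of low genes.

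Depth was recovered from 4386 genes with 1 exon, by searching the depth and length offset that turn low FPKM values into whole reads. Between 96.8% and 97.8% came out whole within 0.05 reads. The search was tested on simulated data. Approximate reads used the canonical GENCODE v44lift37 transcript length less 214 bp. Log2 ratio intervals are exact (Clopper-Pearson), and those of ratios between genes and of differences of responses are approximate, from Poisson errors. PCR reads are not independent molecules, so all cover counting error only. No test was run, since no group had a replicate. In each fixed list, genes past 2-fold the same way in both TET1-si comparisons and partners of a member were named, with other genes picked once their values were known. The nearest genes were those with the smallest Euclidean distance. Scaling, pseudocount, filter and processed copies were varied. Python 3.11.15, pandas 2.3.3 and SciPy 1.17.1 were used.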

Additional observations from a re-analysis of the deposited data

Results flagged for a closer look

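Members whose change pointed in opposite directions in the states compared were set apart. With 1 library per group the direction of each rests on a single pair of libraries, and the difference between them was not tested across cultures.

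KRT19 changed by -0.77 after TET1-si under normoxia and by 0.22 under hypoxia on the log2 scale. The change under hypoxia was 0.12 above the median of all rows. Both directions held under each scaling and pseudocount tried, with 0.10 under hypoxia after median-of-ratios scaling as the value nearest to 0.

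The response of KRT8 to hypoxia was 0.13 with the scrambled control and -0.0867 with TET1-si. The second value became positive with upper-quartile scaling and as TPM, so the opposite directions depended on the scaling.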

How the results depend on the processing

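No paired analysis was possible because each comparison set 1 library against 1 library, with a single replicate number and no test, and no library could be left out. A fit over all 4 libraries that takes the oxygen states as pairs was not run. The reductions of KRT8, KRT18 and KRT7 after TET1-si and the increase of KRT19 in hypoxia kept their direction under all 3 scalings, both other pseudocounts and the addition of processed copies. The direction of 2 values turned, both for the response of KRT8 to hypoxia with TET1-si, from -0.0867 to 0.0739 with upper-quartile scaling and to 0.0499 as TPM. The cause was not tested. The count of members past 2-fold upward in H-scr against N-scr went from 0 to 1 without a pseudocount (KRT23) and to 2 with upper-quartile scaling and as TPM (KRT19 and KRT23).

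The median member change under normoxia after TET1-si was -1.31 without a pseudocount and -0.70 with a pseudocount of 1, and under hypoxia it went from -1.57 to -0.79 with a pseudocount of 1, to -1.66 with upper-quartile scaling and to -1.50 as TPM. A pseudocount of 1 also took the count of members at least 2-fold lower after TET1-si from 4 to 3 under hypoxia and from 3 to 2 under normoxia, in both by the loss of KRT23, which had approximately 2 reads in each TET1-si library. In hypoxia in scrambled cells it was 0.23 with median-of-ratios scaling, 0.42 with upper-quartile scaling and 0.40 as TPM. The median difference of responses was -0.18 with median-of-ratios scaling. Type I over type II moved to 0.721, 1.18, 0.795 and 1.53 (N-scr, then N-si, then H-scr, then H-si) over all keratin genes.

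Rows past 2-fold numbered 2619 and 3187 for hypoxia in scrambled and TET1-si cells and 3065 and 2665 after TET1-si under hypoxia and normoxia. Without a filter they were 6171, 7136, 7309 and 5998, and at a mean of at least 5 FPKM 1371, 1836, 1670 and 1327. A pseudocount of 1 gave 1724 for hypoxia in scrambled cells and 1743 for TET1-si under normoxia. The higher share of changed rows went from 59.0% to 49.2% after TET1-si under hypoxia and from 68.6% to 56.0% under normoxia with median-of-ratios scaling, and from 59.1% to 70.6% for hypoxia in TET1-si cells with upper-quartile scaling. At a mean of at least 5 FPKM the last share was 44.8%. KRT23 alone was limited by depth.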

Other observations

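Genes that mark simple and glandular epithelium outside the keratin family did not move as a block with KRT8 and KRT18. Of a list of 25, 18 had a mean of at least 1 FPKM. After TET1-si 5 were at least 2-fold lower and 1 higher under hypoxia, where 8.35% of all rows were lower and 12% higher. Under normoxia 6 were lower and 2 higher, against 5.56% and 12.1% of all rows. The median changes were -0.03 under hypoxia and 0.17 under normoxia. The adhesion molecules EPCAM and CDH1 were higher after TET1-si in both oxygen states, EPCAM with 154.5, 205.9, 101.6 and 163.4 FPKM in the order N-scr, then N-si, then H-scr, then H-si.

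The secreted and surface products were the members of that list that were lower in both oxygen states. LCN2, an iron-binding secreted protein, had 64.4, 12.4, 208.6 and 46.2 FPKM. AGR2, a secretory-pathway protein, had 3.70, 0.114, 15.7 and 0.417 FPKM. CEACAM1, CEACAM6 and the mucin MUC20 were the others. EPCAM and CDH1 were chosen after seeing their values. EHF, a transcription factor of epithelial cells, was higher in both, with 9.98, 28.9, 14.7 and 30.0 FPKM.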
